A study of Homo sapiens with 6 samples.

Results

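Semaphorins, plexins and neuropilins are a family of secreted and membrane-bound guidance ligands and their receptors. Messenger RNA levels of all 31 human members listed for the family (20 semaphorins, 9 plexins and 2 neuropilins, chosen by gene symbol) were read from a count table of 67026 genes in PC-3 xenograft tumours. PC-3 is an established human prostate cancer cell line. Its cells were transduced by lentivirus with a short hairpin RNA, selected with puromycin (2 μg/mL) and grown under the skin of male NSG mice, 1200000 cells per mouse in a mix of PBS and Matrigel. The shVCAN tumours carried a hairpin against VCAN, the gene for the chondroitin sulfate proteoglycan versican (labelled KD VCAN). The shGFP tumours carried a hairpin against GFP (labelled KD control). The hosts of both groups were NOD.Cg-Prkdcscid Il2rgtm1Wjl/SzJ animals, 4 to 5 weeks old, which lack T, B and natural killer cells but keep mouse vessels, fibroblasts and myeloid cells. Tumour growth was followed for 4 weeks, and the labels number 3 tumours in each group. All tumours derive from the same cell line, the number of hairpins per target is not given, and a further experimental group in the growth protocol was not analysed here.

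Semaphorins bind plexins through a shared sema domain. Plexins are transmembrane receptors whose intracellular part switches off small GTPases of the R-Ras and Rap type, which loosens integrin adhesion and remodels the actin cytoskeleton. Most secreted class 3 semaphorins first bind a neuropilin, which presents them to a plexin, and neuropilins also bind vascular endothelial growth factors. The family is known for steering axons and blood vessels, and in epithelial tumours its members have been linked to cell migration and vessel growth.

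The knockdown and the samples were checked first. VCAN had 69, 39 and 44 counts in the shVCAN tumours, against 133, 104 and 121 counts in the shGFP tumours, a log2 fold change of −1.53 (SE 0.207, adjusted p = 4.59e-07). The groups did not overlap, and p was 0.1 in a two-sided exact permutation test on normalised VCAN, which cannot go lower with 3 tumours on each side. The libraries held 11253058 to 13327617 counts. The epithelial keratins KRT8, KRT18 and KRT19 and the epithelial surface protein EPCAM were present in every tumour, and the androgen-regulated prostate gene KLK3 had 0 counts in all 6. Values below are CPM, counts scaled to a common library size by the TMM method, as mean ± SD with n = 3 per group where a mean is given. A gene is said to rise or fall, or is called, at an edgeR quasi-likelihood p under 0.05 after Benjamini-Hochberg adjustment over all 16254 tested genes.

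Both neuropilins, 4 of 9 plexins and 8 of 18 tested semaphorins fell in shVCAN tumours, and 3 semaphorins rose. Of the 29 members that passed the filter on low counts, 3 rose (SEMA5A, SEMA3B and SEMA4F), 14 fell and 12 were not called. Over all tested genes 40.3% were called, 19.2% higher and 21.1% lower, while of the 29 tested members 58.6% were called, 10.3% higher and 48.3% lower. Across the tested members the median log2 fold change was −0.28, against 0.0014 for all tested genes. Of these 29 members, 20 had groups that did not overlap (69.0%), against 48.7% of all tested genes. These counts are a description and were not tested as a set. For the counts by class below, the share over all tested genes was likewise 19.2% higher and 21.1% lower.

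**Figure D1:**
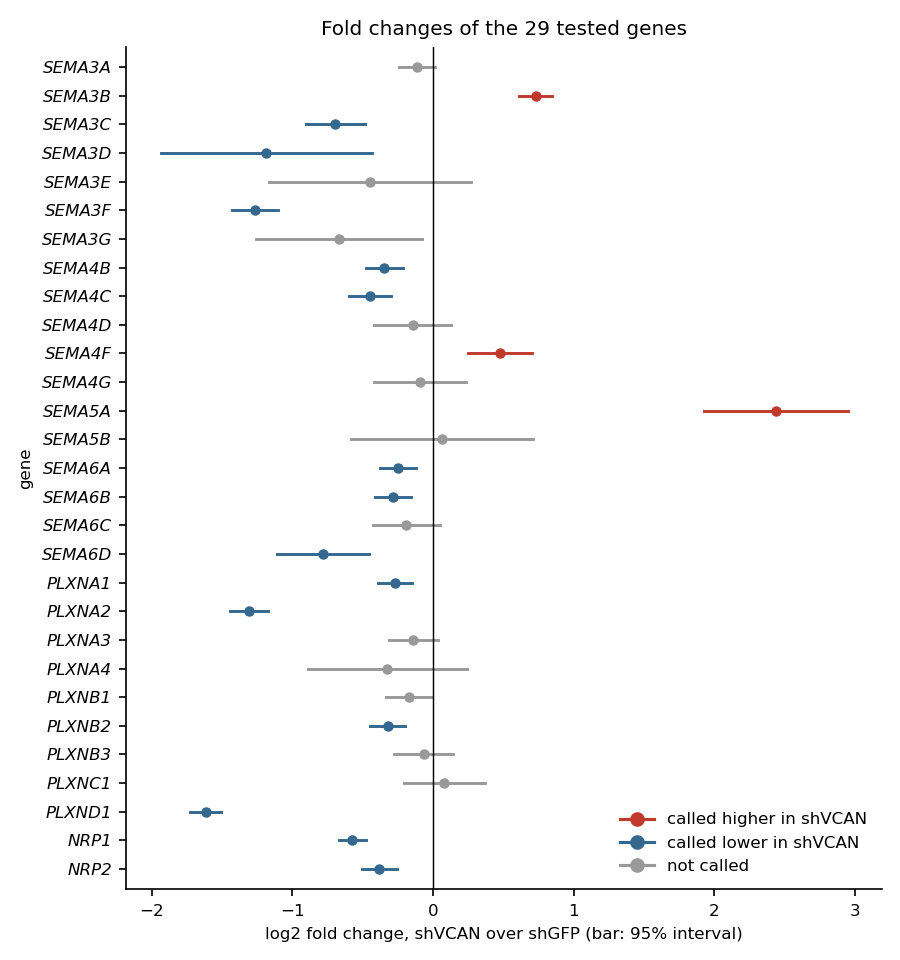
Log2 fold change, shVCAN over shGFP, for the 29 tested semaphorin, plexin and neuropilin genes, with bars for the 95% interval of the fit and colour for the call. SEMA5A stands furthest to the right at 2.44 and PLXND1 furthest to the left at −1.62.

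The members differ from the average gene in length and composition. The tested members had a median exonic length of 8517 bases and a median GC content of 57.7%, against 4592 bases and 49.2% for all tested genes that have an annotated length. When the trend of a library with gene length and GC content was taken out by an offset, 3 members rose and 13 fell, against 18.1% of all tested genes higher and 20.5% lower in that fit, and the median of the members was −0.15. With libraries scaled by size alone, which shifts the median of all tested genes to 0.17, 3 members rose and 10 fell, against 32.2% of all tested genes higher and 11.6% lower, and the median of the members was −0.12.

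Promoters are shown for the 5 members that were called with at least a 2-fold change (SEMA5A, which rose, and PLXND1, PLXNA2, SEMA3F and SEMA3D, which fell), because these carry the largest differences. The sequences are RefSeq promoters on GRCh38.p14, the 250 bases before the start in that source, written 5′ to 3′ on the gene's strand. That start can differ from the GENCODE coordinates given for the genes. The PLXND1 and SEMA3F windows reach into the GENCODE gene, and those of SEMA3D and PLXNA2 lie some way before it. The bases just after the start were found in a GENCODE transcript for SEMA5A, SEMA3F and PLXND1, but not for SEMA3D and PLXNA2. Capitals mark every match to the GC box GGGCGG or its reverse complement, the binding motif of SP1-type factors.
SEMA5A (chr5:9546076-9546325, minus strand): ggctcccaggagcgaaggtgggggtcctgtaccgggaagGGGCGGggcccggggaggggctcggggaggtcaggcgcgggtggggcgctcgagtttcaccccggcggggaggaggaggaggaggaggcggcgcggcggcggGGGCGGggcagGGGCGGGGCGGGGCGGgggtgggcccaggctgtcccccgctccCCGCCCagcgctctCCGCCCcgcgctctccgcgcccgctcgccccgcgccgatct
SEMA3D (chr7:85187057-85187306, minus strand): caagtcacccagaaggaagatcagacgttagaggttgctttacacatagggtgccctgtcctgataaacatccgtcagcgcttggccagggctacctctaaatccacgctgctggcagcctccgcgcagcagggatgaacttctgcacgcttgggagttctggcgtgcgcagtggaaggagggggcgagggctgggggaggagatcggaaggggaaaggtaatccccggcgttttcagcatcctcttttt
SEMA3F (chr3:50154808-50155057, plus strand): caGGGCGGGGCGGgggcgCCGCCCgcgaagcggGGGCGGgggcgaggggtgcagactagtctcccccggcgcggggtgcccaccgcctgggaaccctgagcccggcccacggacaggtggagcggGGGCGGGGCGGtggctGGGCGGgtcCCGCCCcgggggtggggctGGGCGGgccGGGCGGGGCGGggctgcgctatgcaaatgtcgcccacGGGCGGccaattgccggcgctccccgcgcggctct
PLXNA2 (chr1:208244385-208244634, minus strand): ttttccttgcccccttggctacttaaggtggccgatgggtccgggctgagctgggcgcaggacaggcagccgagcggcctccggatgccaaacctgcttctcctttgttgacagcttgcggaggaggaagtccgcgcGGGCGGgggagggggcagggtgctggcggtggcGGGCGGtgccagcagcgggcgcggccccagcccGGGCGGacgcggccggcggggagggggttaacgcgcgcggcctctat
PLXND1 (chr3:129606677-129606926, minus strand): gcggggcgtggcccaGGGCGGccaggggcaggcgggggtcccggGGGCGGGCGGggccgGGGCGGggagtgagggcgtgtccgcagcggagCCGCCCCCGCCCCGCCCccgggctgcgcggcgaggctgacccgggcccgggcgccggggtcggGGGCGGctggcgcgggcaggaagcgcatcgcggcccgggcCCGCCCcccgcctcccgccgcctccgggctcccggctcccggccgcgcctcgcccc

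Of the 31 members, 27 had a RefSeq promoter in the table used, and NRP1, SEMA3A, SEMA6A and SEMA6B had none. GC boxes (GGGCGG, both strands) were found in 18 of these 27 windows (66.7%), against 42.3% of the 27305 promoter windows of the same length. The member windows also differed in composition, with a median GC content of 64.4% and 13 CG dinucleotides, against 58.0% and 11 for all windows. The part of this composition in the motif counts was not tested. SEMA5A, the member with the largest rise, had 7 GC box matches, overlapping matches included, and PLXND1, with the largest fall, had 9. SEMA3F had 12, PLXNA2 had 3 and SEMA3D had 0. The TATA box (TATAAA, both strands) was found in 0 of the 27 windows and in 11.1% of all windows. The AP-1 motif (TGANTCA, which reads the same on both strands) was found in 1 window, that of PLXNC1, and in 6.60% of all windows. Matches of different motifs shared no base in the member windows. A match is a description of the letters and not a bound site.

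Class 3 semaphorins are the secreted members. They moved in both directions: of 7 tested, SEMA3B rose, SEMA3C, SEMA3D and SEMA3F fell, and SEMA3A, SEMA3E and SEMA3G were not called. SEMA3B had 265, 298 and 274 CPM in shVCAN tumours, against 168, 178 and 159.8 CPM in shGFP tumours. Every shVCAN value lay above every shGFP value, a 1.66-fold difference (log2 fold change 0.73, SE 0.0561, adjusted p = 7.05e-12). SEMA3B is a secreted semaphorin that has been described as a candidate tumour suppressor in lung cancer.

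SEMA3F, a ligand that prefers NRP2 and repels endothelial and tumour cells, had 32.1, 31.3 and 28.5 CPM in shVCAN tumours, against 76.8, 75.3 and 68.6 CPM in shGFP tumours. It was 2.40-fold lower, without overlap (log2 fold change −1.27, SE 0.0796, adjusted p = 7.85e-14). SEMA3F (chromosome 3, 50155045 to 50189075) and SEMA3B (chromosome 3, 50267558 to 50277546, both on the plus strand of GRCh38) are neighbours, 78482 bases apart, and moved in opposite directions. Per kilobase of exonic length, the ratio of SEMA3B to SEMA3F was 6.92, 7.99 and 8.06 in shVCAN tumours, against 1.83, 1.97 and 1.95 in shGFP tumours. The ratio thus averaged 7.66 ± 0.637 in shVCAN and 1.92 ± 0.0787 in shGFP. Of the 3 tested genes that lie wholly between them, U73166.1 rose, GNAI2 fell and SLC38A3 was not called.

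SEMA3C, known to act through both neuropilins and to promote migration in several cancers, had 26.1, 21.4 and 24.9 CPM in shVCAN tumours, against 44.4, 36.6 and 35.9 CPM in shGFP tumours. The groups did not overlap, and the log2 fold change was −0.69 (SE 0.103, adjusted p = 2.38e-06). SEMA3C shares a stretch of chromosome 7 (80742538 to 85186855, GRCh38) with SEMA3A, SEMA3D and SEMA3E. SEMA3D, a ligand known from endothelial and neural crest patterning, had only 11 to 18 counts in shVCAN tumours and 25 to 32 in shGFP tumours. Its level was 1.31, 0.776 and 1.31 CPM in shVCAN, against 2.50, 2.32 and 2.92 CPM in shGFP (log2 fold change −1.18, SE 0.368, adjusted p = 0.0104). That call was lost without shVCAN tumour 2 (adjusted p = 0.0624).

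SEMA3A, the prototype axon repellent that signals through NRP1 and A-type plexins, was far more abundant than SEMA3D, with 11.9 ± 0.732 CPM per kb in shVCAN and 12.8 ± 0.763 CPM per kb in shGFP, against 0.140 ± 0.0382 and 0.320 ± 0.0383 CPM per kb for SEMA3D. Its log2 fold change was −0.11 (95% interval −0.24 to 0.02, adjusted p = 0.161), so a fall of more than 0.24 lies outside the interval. With the length and GC offset SEMA3A was called lower (−0.15, adjusted p = 0.0248). SEMA3E, a ligand that binds PLXND1 without a neuropilin, had 2.10 ± 0.915 CPM in shVCAN and 2.84 ± 0.856 CPM in shGFP, with overlapping groups (95% interval of the log2 fold change −1.16 to 0.27, adjusted p = 0.334). SEMA3G, an endothelial semaphorin, had 2.33 ± 0.510 CPM in shVCAN and 3.71 ± 0.622 CPM in shGFP (log2 fold change −0.67, adjusted p = 0.0637). SEMA3G groups did not overlap, although the gene was not called.

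Class 4 semaphorins are transmembrane proteins, several of which bind B-type plexins. Of 5 tested, SEMA4F rose, SEMA4B and SEMA4C fell, and SEMA4D and SEMA4G were not called. SEMA4F, known from neurons and Schwann cells, had 25.3, 29.3 and 24.6 CPM in shVCAN tumours, against 20.2, 18.0 and 18.6 CPM in shGFP tumours (log2 fold change 0.48, SE 0.110, adjusted p = 0.000813). SEMA4C, a ligand of PLXNB2, had 58.8, 60.0 and 51.9 CPM in shVCAN, against 75.1, 76.1 and 81.5 CPM in shGFP (log2 fold change −0.45, SE 0.0726, adjusted p = 9.58e-06). The groups did not overlap for either gene.

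SEMA4B had 77.6, 82.6 and 75.2 CPM in shVCAN tumours, against 103, 102 and 94.9 CPM in shGFP tumours, again without overlap (log2 fold change −0.35, adjusted p = 6.53e-05). SEMA4D, the ligand of PLXNB1 also known as CD100 on lymphocytes, had overlapping groups, with 17.2 ± 1.67 CPM in shVCAN and 19.0 ± 3.97 CPM in shGFP (95% interval of the log2 fold change −0.42 to 0.13, adjusted p = 0.426). SEMA4G had 8.52 ± 0.497 CPM in shVCAN and 9.10 ± 0.0786 CPM in shGFP (adjusted p = 0.675), without overlap of the groups. Its value is uncertain because genes on the opposite strand, among them MRPL43, share 27.4% of its exonic bases, and the sources used here do not give the strand setting. MRPL43 itself rose, with 58.7 ± 2.68 CPM in shVCAN and 43.6 ± 3.21 CPM in shGFP (adjusted p = 4.75e-05). Its part in the SEMA4G counts was not tested. SEMA4A, a ligand studied mainly in immune cells and the retina, did not pass the filter, with 1, 10 and 3 counts in shVCAN tumours and 2, 9 and 14 counts in shGFP tumours.

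The class 5 transmembrane semaphorins carry thrombospondin repeats, and in rat axons heparan and chondroitin sulfate proteoglycans alter the response to SEMA5A. SEMA5A had 10.5, 11.8 and 12.4 CPM in shVCAN tumours, against 3.50, 1.77 and 1.005 CPM in shGFP tumours. SEMA5A was higher in every shVCAN tumour than in any shGFP tumour, and the fitted difference was 5.42-fold (log2 fold change 2.44, SE 0.250, adjusted p = 3.10e-09). SEMA5A had 144, 167 and 170 counts in shVCAN, against 42, 19 and 11 counts in shGFP, where the tumours differed widely among themselves, and without shGFP tumour 1 the log2 fold change was 3.06. The antisense row SEMA5A-AS1 held 0 counts in every library. SEMA5B, its paralog, had 2.77 ± 0.800 CPM in shVCAN and 2.65 ± 0.806 CPM in shGFP, with overlapping groups (95% interval of the log2 fold change −0.58 to 0.71, adjusted p = 0.892).

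The class 6 semaphorins are transmembrane ligands of A-type plexins, and 3 of the 4 fell. SEMA6D, a ligand of PLXNA1, had 8.20, 6.63 and 8.68 CPM in shVCAN tumours, against 15.7, 13.2 and 11.4 CPM in shGFP tumours (log2 fold change −0.78, SE 0.162, adjusted p = 0.000231). The fall in SEMA6D was the largest of the class. SEMA6A, a ligand of PLXNA2 and PLXNA4, had 99.0, 93.8 and 94.4 CPM in shVCAN, against 112, 121 and 109 CPM in shGFP (log2 fold change −0.25, adjusted p = 0.00157). SEMA6B had 93.1, 106 and 108 CPM in shVCAN, against 127, 126 and 122 CPM in shGFP (log2 fold change −0.28, adjusted p = 0.000577). None of these 3 genes had overlapping groups, but the SEMA6A call was lost with library size alone (adjusted p = 0.313) and with the length and GC offset (adjusted p = 0.270), and the SEMA6B call with library size alone (adjusted p = 0.153). SEMA6C had 19.0 ± 2.43 CPM in shVCAN and 21.7 ± 0.979 CPM in shGFP and was not called, although its groups did not overlap (95% interval −0.43 to 0.05, adjusted p = 0.209). SEMA7A, the membrane-anchored ligand of PLXNC1 and of integrin beta 1, had 0 counts in all 6 tumours, which allows up to 3 counts per library, or 0.211 to 0.278 CPM, for counting error only. Whether the counting could have missed SEMA7A reads was not tested, so the 0 is given as listed in the table.

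**Figure D2:**
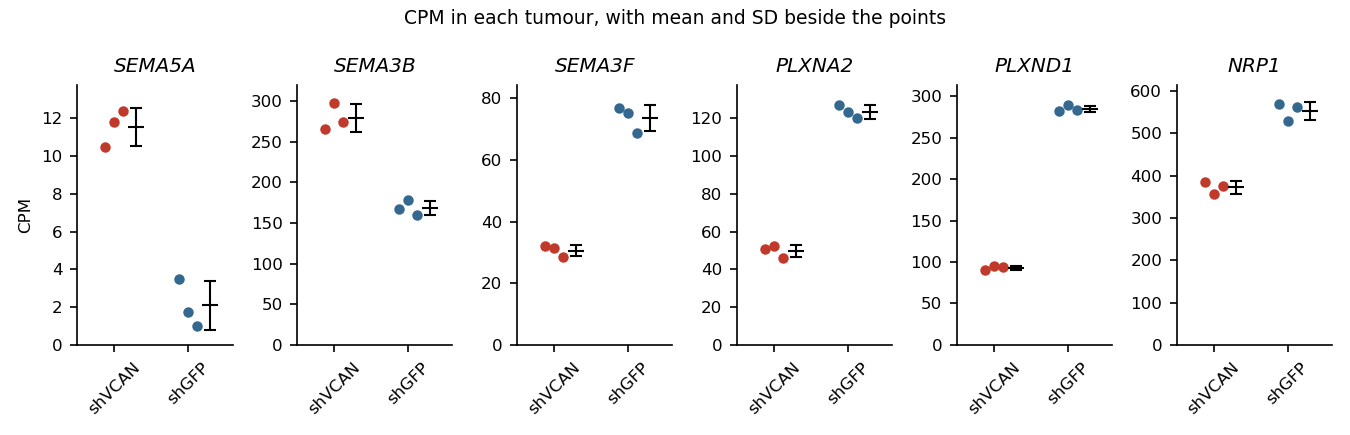
CPM of 6 family members in each tumour (vertical axes start at 0 and differ between genes), with shVCAN tumours in red, shGFP tumours in blue, and the mean and SD of the 3 tumours beside the points. SEMA5A and SEMA3B lie higher in every shVCAN tumour, and SEMA3F, PLXNA2, PLXND1 and NRP1 lie lower.

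Among the receptors, 4 of 9 plexins fell and 5 were not called. PLXND1, the receptor of SEMA3E and a regulator of vessel patterning, had 90.4, 94.5 and 93.8 CPM in shVCAN tumours, against 282, 289 and 283 CPM in shGFP tumours. The values within each group lay close together, and the level in shVCAN was 3.07-fold lower (log2 fold change −1.62, SE 0.0539, adjusted p = 2.66e-20). PLXND1 lies on chromosome 3 (129555175 to 129606818, minus strand, GRCh38). SEMA3E, a ligand that binds PLXND1 without a neuropilin, was near the lower end of the family in both groups. It had 0.249 ± 0.109 CPM per kb in shVCAN and 0.337 ± 0.102 CPM per kb in shGFP.

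The A-type plexins are the signalling partners of neuropilins. PLXNA2 (chromosome 1, 208022242 to 208244320, minus strand) had 50.9, 52.5 and 46.1 CPM in shVCAN tumours, against 127, 123 and 120.1 CPM in shGFP tumours. That is 2.48-fold lower without overlap (log2 fold change −1.31, SE 0.0673, adjusted p = 6.51e-16). PLXNA1, the most abundant plexin per length in both groups, had 267, 317 and 262 CPM in shVCAN, against 328, 362 and 331 CPM in shGFP (log2 fold change −0.27, SE 0.0595, adjusted p = 0.000451). The groups did not overlap, but that call was lost with library size alone (adjusted p = 0.190) and with the length and GC offset (−0.04, adjusted p = 0.499). PLXNA3 had 52.8 ± 6.79 CPM in shVCAN and 58.3 ± 4.49 CPM in shGFP, and PLXNA4, a receptor for SEMA6A in neurons, had 3.96 ± 1.91 CPM in shVCAN and 4.97 ± 0.843 CPM in shGFP. Neither was called (adjusted p = 0.197 and 0.375), and the groups overlapped for both, although without shVCAN tumour 2 PLXNA3 was called lower (−0.24, adjusted p = 0.0171).

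B-type plexins bind class 4 semaphorins and couple to RhoA through guanine nucleotide exchange factors. PLXNB2, the receptor of SEMA4C, had 106, 115 and 103 CPM in shVCAN tumours, against 129, 134 and 141 CPM in shGFP tumours (log2 fold change −0.32, SE 0.0613, adjusted p = 8.50e-05). PLXNB2 groups did not overlap, and the call was lost with library size alone (adjusted p = 0.0531). PLXNB1, the receptor of SEMA4D, had 86.9, 103 and 74.8 CPM in shVCAN, against 106, 97.5 and 94.98 CPM in shGFP, with overlap (log2 fold change −0.17, adjusted p = 0.0946). Without shVCAN tumour 2, the highest of its group, PLXNB1 was called lower (−0.30, adjusted p = 0.000503).

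PLXNB3, reported as a receptor of SEMA5A, and PLXNC1, the receptor of SEMA7A, had overlapping groups. PLXNB3 averaged 23.9 ± 0.902 CPM in shVCAN and 25.0 ± 1.38 CPM in shGFP (95% interval of the log2 fold change −0.28 to 0.14, adjusted p = 0.645), and 20.4% of its exonic bases are shared with SRPK3 on the same strand. PLXNC1 averaged 13.2 ± 1.16 CPM in shVCAN and 12.5 ± 1.48 CPM in shGFP (95% interval −0.21 to 0.37, adjusted p = 0.691). The gain of SEMA5A transcript was thus measured beside a PLXNB3 level that was not called and whose interval excludes a 2-fold change.

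Both neuropilins fell. NRP1, the co-receptor of SEMA3A and of VEGFA, had 384, 356 and 376 CPM in shVCAN tumours, against 569, 529 and 563 CPM in shGFP tumours (log2 fold change −0.57, SE 0.0476, adjusted p = 3.61e-11). NRP2, the co-receptor of SEMA3F and of VEGFC, had 96.0, 88.6 and 91.7 CPM in shVCAN, against 119.7, 115 and 125 CPM in shGFP (log2 fold change −0.38, SE 0.0615, adjusted p = 8.04e-06). The groups overlapped for neither gene, and of the alternatives that were run only the minimum 2-fold change ended these calls. NRP1 lies on chromosome 10 (33177492 to 33336262, minus strand, GRCh38), and 4.87% of its exonic bases are shared with an antisense gene.

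**Figure D3:**
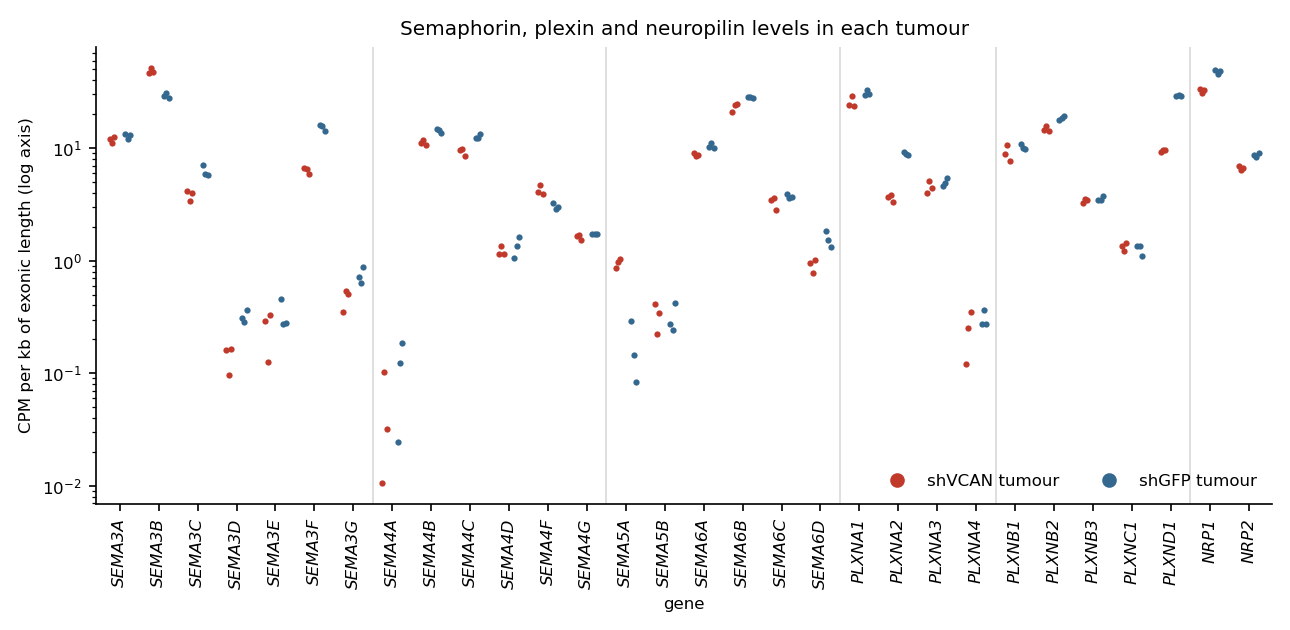
Level of each member in each tumour, in CPM per kilobase of exonic length on a log axis, with shVCAN tumours in red left of shGFP tumours in blue. Grey lines separate class 3, class 4 and class 5 and 6 semaphorins, A-type plexins, other plexins and neuropilins. SEMA7A (0 in all tumours) is not drawn.

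Per kilobase of exonic length the family spans a wide range, and on this scale its leading gene differed between the groups. SEMA3B was the most abundant member in shVCAN tumours, at 48.4 ± 2.96 CPM per kb, against 29.2 ± 1.56 CPM per kb in shGFP tumours. NRP1 was the second in shVCAN, at 32.3 ± 1.27 CPM per kb, and the first in shGFP, at 48.0 ± 1.87 CPM per kb. PLXND1 was the eighth in shVCAN, at 9.54 ± 0.224 CPM per kb, against the third place in shGFP, at 29.3 ± 0.375 CPM per kb. In shGFP the means of PLXND1, SEMA3B and SEMA6B (28.3 ± 0.575 CPM per kb) differed by less than the SD of SEMA3B. SEMA5A remained among the low members also after its rise, at 0.955 ± 0.0825 CPM per kb in shVCAN and 0.173 ± 0.106 CPM per kb in shGFP. In CPM without division by length, NRP1 led in both groups, at 372 ± 14.6 CPM in shVCAN and 553 ± 21.5 CPM in shGFP. SEMA3B had 279 ± 17.1 CPM in shVCAN and 168 ± 9.02 CPM in shGFP, so the change of leading gene depends on the length used.

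The receptors as a sum were lower in shVCAN tumours, while the sums of the ligands depended on the scaling. Summed per kilobase, the 20 semaphorins had 133, 141 and 135 CPM per kb in shVCAN tumours, against 145, 144 and 139 CPM per kb in shGFP tumours, with overlapping groups. With library size alone the groups separated the other way, at 141.3, 149.98 and 140.99 CPM per kb in shVCAN, against 135, 137 and 130.5 CPM per kb in shGFP. The 9 plexins summed to 69.5, 79.0 and 68.4 CPM per kb in shVCAN, against 107, 110.3 and 108 CPM per kb in shGFP, and the 2 neuropilins to 40.3, 37.3 and 39.2 CPM per kb in shVCAN, against 58.0, 54.2 and 57.9 CPM per kb in shGFP. The plexin and neuropilin sums were lower in every shVCAN tumour, also with library size alone.

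Shares within a tumour do not depend on the scaling of the libraries. SEMA3B made up 35.5% ± 1.07 of the summed semaphorin level in shVCAN tumours and 20.5% ± 0.846 in shGFP tumours. SEMA3F made up 4.65% ± 0.323 in shVCAN and 10.7% ± 0.386 in shGFP. Among the plexins, the share of PLXND1 was 13.2% ± 0.900 in shVCAN and 27.0% ± 0.150 in shGFP, and that of PLXNA1 was 35.5% ± 0.931 in shVCAN and 28.7% ± 1.11 in shGFP. NRP1 made up 83.0% ± 0.180 of the neuropilin level in shVCAN and 84.8% ± 0.349 in shGFP. Shares sum to a whole, so a rise in one share lowers the others, and they carry no test.

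**Figure D4:**
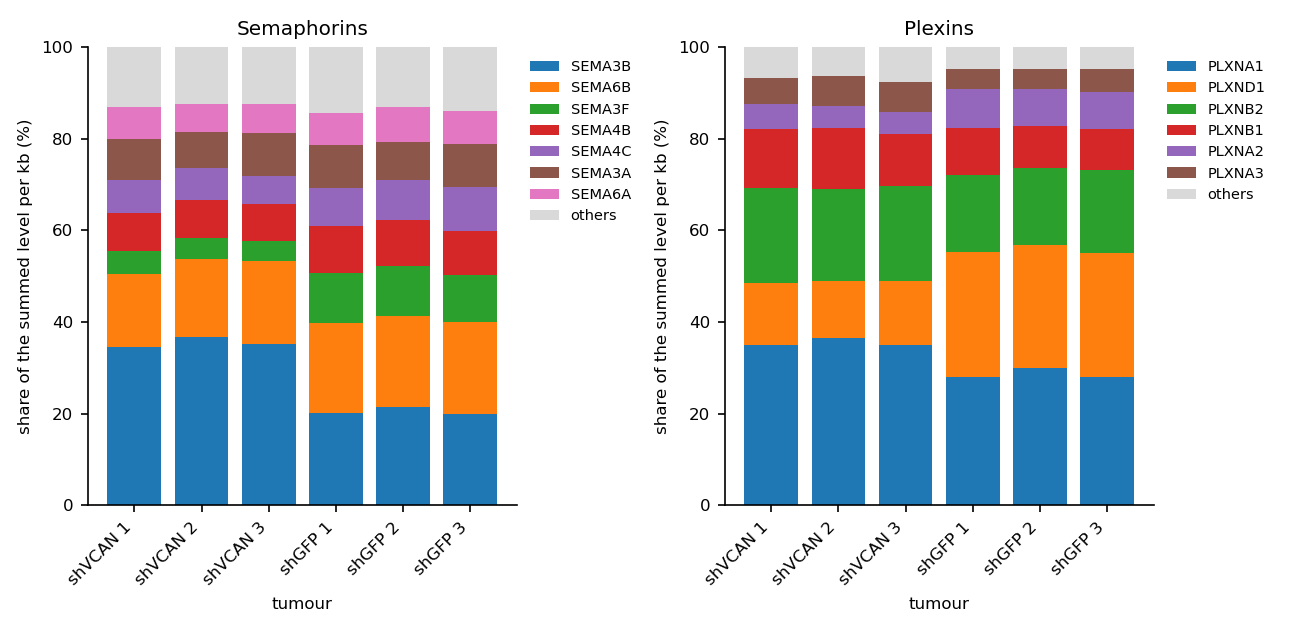
Share of each gene in the summed level per kilobase of all semaphorins (left) and all plexins (right), in percent, for each tumour. The SEMA3B band fills 34.6% to 36.7% of the semaphorin bar in shVCAN tumours and 19.99% to 21.5% in shGFP tumours, and the PLXND1 band 12.3% to 14.1% of the plexin bar in shVCAN tumours and 26.9% to 27.2% in shGFP tumours.

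Genes that act with the receptors were read from lists chosen by function. Of 35 signalling genes below plexins, 10 rose, 10 fell and 15 were not called (57.1% called, against 40.3% of all tested genes). Of the 5 collapsin response mediators, which carry the semaphorin signal to microtubules, CRMP1, DPYSL2 and DPYSL5 rose and DPYSL3 and DPYSL4 were not called. CRMP1 and DPYSL2 had log2 fold changes of 0.20 and 0.19 (adjusted p = 0.0139 and 0.0136), and DPYSL5 rose to 18.0 ± 1.76 CPM in shVCAN, against 7.95 ± 1.16 CPM in shGFP (adjusted p = 1.17e-07). Of the actin-oxidising MICAL enzymes, MICAL1 was not called (log2 fold change 0.20, adjusted p = 0.0707), and the other two were called in opposite directions, MICAL2 at 54.2 ± 2.80 CPM in shVCAN and 84.3 ± 4.91 CPM in shGFP (adjusted p = 1.40e-08) and MICAL3 at 91.2 ± 15.2 CPM in shVCAN and 64.8 ± 5.50 CPM in shGFP (adjusted p = 2.66e-05). The neuropilin-binding adaptor GIPC1 rose, with 246 ± 8.03 CPM in shVCAN and 205 ± 9.61 CPM in shGFP (adjusted p = 0.000167).

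Other genes of that list with the smallest p in each direction were LIMK1, ARHGEF12, ARHGAP35 and RND3, which fell, and RHOD and CDK5, which rose. LIMK1, the kinase that inactivates cofilin, had 104 ± 5.18 CPM in shVCAN and 157 ± 8.27 CPM in shGFP (adjusted p = 2.92e-09). ARHGEF12, an exchange factor that links B-type plexins to RhoA, had 58.8 ± 1.74 CPM in shVCAN and 87.7 ± 0.967 CPM in shGFP (adjusted p = 2.65e-08), and ARHGAP35 had 67.0 ± 5.25 CPM in shVCAN and 104 ± 4.13 CPM in shGFP (adjusted p = 7.89e-09). The GTPase RND3 fell (log2 fold change −0.41, adjusted p = 3.24e-06), while RHOD, a GTPase that binds plexins, rose (0.56, adjusted p = 0.000405), as did the kinase CDK5 (0.37, adjusted p = 0.000795).

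Of 12 co-receptors and receptor partners, 4 rose, 2 fell and 6 were not called (50.0% called, near the 40.3% of all tested genes). L1CAM, a neural adhesion molecule that joins NRP1 in the SEMA3A receptor, rose to 16.5 ± 1.06 CPM in shVCAN, against 7.27 ± 0.587 CPM in shGFP (log2 fold change 1.18, adjusted p = 9.34e-08). The integrin chains of the SEMA7A receptor, ITGA1 and ITGB1, had log2 fold changes of 1.13 (adjusted p = 1.27e-05) and 0.14 (adjusted p = 0.0113), beside a SEMA7A row listed at 0. KDR, the receptor for VEGFA that NRP1 assists, had 24.0 ± 1.45 CPM in shVCAN and 45.5 ± 2.63 CPM in shGFP (adjusted p = 1.44e-09). ERBB2, a partner of B-type plexins, fell (−0.37, adjusted p = 0.000843) and FLT1, a receptor for VEGFA that is known mainly from endothelium, rose (0.94, adjusted p = 0.0274). The calls of ITGB1 and ERBB2 were lost with the length and GC offset (adjusted p = 0.128 and 0.151), that of ITGB1 also without shVCAN tumour 1 or 3 or shGFP tumour 3 (adjusted p up to 0.0888), and that of FLT1 without shGFP tumour 1 or 3 or any 1 of the shVCAN tumours (adjusted p up to 0.0868).

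Proteases that cut semaphorins and other ligands of neuropilins were read in the same way. Of 8 proteases, 1 rose, 4 fell and 3 were not called (62.5% called, against 40.3% of all tested genes). FURIN, which cleaves class 3 semaphorins and sets their activity, had 70.7 ± 2.82 CPM in shVCAN and 126 ± 6.27 CPM in shGFP (log2 fold change −0.84, adjusted p = 5.81e-12). MMP14, which releases SEMA4D from cells, had 2223 ± 57.8 CPM in shVCAN and 1949 ± 60.9 CPM in shGFP (adjusted p = 0.000312). The calls of PCSK5, PCSK7 and ADAM10 (log2 fold changes −0.52, −0.25 and −0.19) were lost with library size alone (adjusted p = 0.0563, 0.443 and 0.844). Leaving out 1 tumour also ended calls of PCSK5 (without shGFP 1, adjusted p = 0.145), PCSK7 (without shVCAN 3 or shGFP 2, adjusted p up to 0.129) and ADAM10 (without any tumour but shVCAN 3, adjusted p up to 0.0958). Of 7 other ligands of neuropilins, 1 rose, 3 fell and 3 were not called (57.1% called, against the same 40.3%). HGF had 3.31 ± 0.307 CPM in shVCAN and 1.08 ± 0.446 CPM in shGFP (log2 fold change 1.59, adjusted p = 0.000571). It rests on few counts, 41, 48 and 49 in shVCAN, against 19, 10 and 8 in shGFP. VEGFA, VEGFC and TGFB1 fell (−0.62, −0.54 and −0.75, adjusted p = 9.99e-09, 0.000131 and 8.43e-12).

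**Figure D5:**
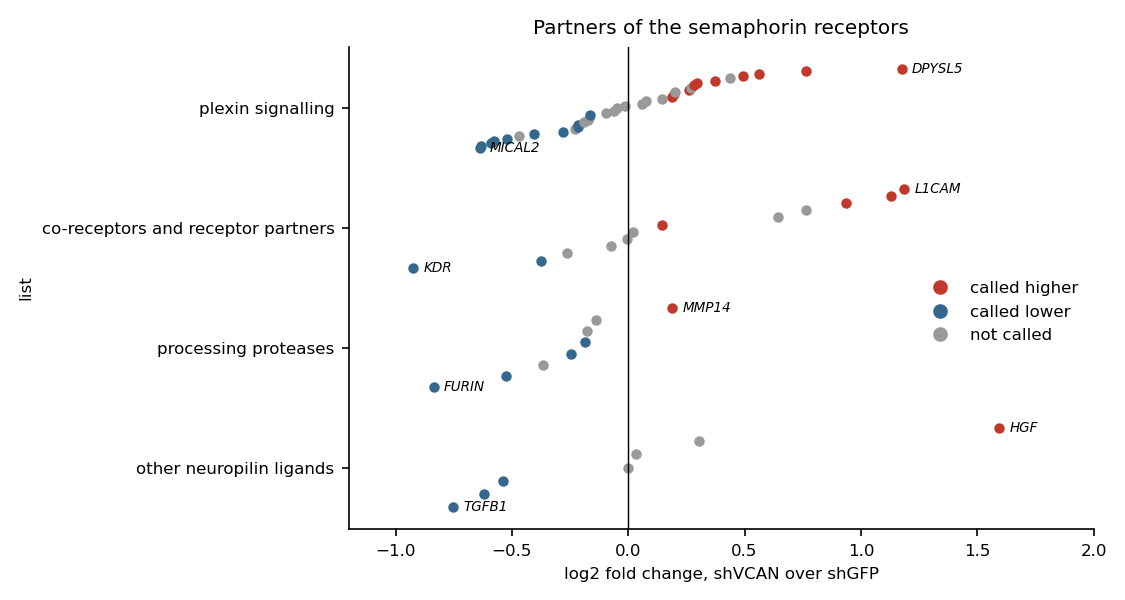
Log2 fold change, shVCAN over shGFP, of the tested genes in the lists of signalling genes, co-receptors, proteases and other neuropilin ligands, with colour for the call and a name at the lowest and highest gene of each list. The values run from −0.92 (KDR) to 1.59 (HGF).

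Markers of other cell types were read beside these genes, since several family members are also known from endothelium and nerve. In bulk tumours, fewer cells of a type and less RNA per cell cannot be told apart. The counts are for human genes, and the hosts were mice. Transcripts of the PC-3 cells and mouse reads assigned to human genes cannot be told apart here either. The 13 endothelial markers summed to 171 to 179 CPM in shVCAN tumours, against 204 to 223 CPM in shGFP tumours, and of the 7 tested, 5 fell, 1 rose and 1 was not called. For this list and the marker lists that follow, the share over all tested genes was 19.2% higher and 21.1% lower. Among those that fell, TIE1 held the largest part of the endothelial sum, with 64.6 ± 7.45 CPM in shVCAN and 84.7 ± 4.37 CPM in shGFP. ROBO4 had 33.7 ± 2.24 CPM in shVCAN and 39.8 ± 2.35 CPM in shGFP. PECAM1 had 24.1 ± 0.989 CPM in shVCAN and 33.4 ± 1.13 CPM in shGFP. CDH5, also lower, had 0.885 ± 0.277 CPM in shVCAN and 5.87 ± 0.585 CPM in shGFP. The marker that rose was EGFL7, with 49.1 ± 5.54 CPM in shVCAN and 41.2 ± 1.87 CPM in shGFP (adjusted p = 0.0194). At most 10 counts in every tumour were held by 4 of the 13 (VWF, ERG, CLDN5 and ADGRL4), with ADGRL4 at 0 in all tumours. Beside these markers, PLXND1 averaged 92.9 ± 2.18 CPM in shVCAN and 285 ± 3.66 CPM in shGFP.

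The 13 markers of fibroblasts and pericytes summed to 417 to 517 CPM in shVCAN, against 858 to 958 CPM in shGFP. THY1 was at 0, and of the 9 tested, 5 fell, 1 rose and 3 were not called. Most of that sum was the collagen gene COL1A1, at 300 ± 48.9 CPM in shVCAN and 619 ± 37.5 CPM in shGFP. The marker that rose was RGS5, at 30.5 ± 4.73 CPM in shVCAN and 21.9 ± 1.34 CPM in shGFP. At most 10 counts in every tumour were held by 3 of the 13, THY1 included. The 14 markers of Schwann cells and neurons summed to 139 to 152 CPM in shVCAN, against 132 to 144 CPM in shGFP, and of the 10 tested, 3 rose, 4 fell and 3 were not called. These sums overlapped, but the log2 fold changes of the tested genes in that list ran from −3.70 to 2.29. Of the 12 macrophage markers, 5 were at 0 in every tumour (C1QA, C1QB, C1QC, FCGR1A and CD163), and the list summed to 4.37 to 5.98 CPM in shVCAN, against 5.41 to 8.64 CPM in shGFP, with 1 of 4 tested genes lower and 3 not called. The 11 skeletal muscle markers summed to 202 to 305 CPM in shVCAN, against 265 to 464 CPM in shGFP, with overlapping sums and TNNT3 at 0, and of the 8 tested, 6 fell and 2 were not called. Of the 10 epithelial and prostate markers, 8 were tested, of which KRT8, KRT18, EPCAM and CDH1 fell and 4 were not called. The largest of these falls was that of CDH1, the epithelial cadherin, with 3.61 ± 0.814 CPM in shVCAN and 16.5 ± 2.31 CPM in shGFP (log2 fold change −2.20, adjusted p = 3.18e-11). Mitochondrial messenger RNAs held 6.39% to 7.63% of the counts in shVCAN and 13.3% to 16.2% in shGFP. The part of these differences in the results of the family was not tested, and the sources used here do not say whether mouse reads were removed.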

How the data were processed

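Total RNA of 6 PC-3 xenograft tumours was sequenced as paired reads. The deposited table holds whole-number counts per gene, not normalised by the authors. Per the submitters' processing notes, which give no versions, the tools were Trim Galore, STAR and DESeq2 and the build hg38. The sources used here do not give the counting program, its strand setting or any removal of mouse reads. The labels number the tumours but do not say whether each came from a separate animal, so p-values measure the spread between these samples. The fit put the common coefficient of variation between samples of a group, beyond counting error, at 6.63%.

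From the 67071 rows, 45 copies of pseudoautosomal genes, all with 0 counts, were left out. Genes passing filterByExpr were fitted with edgeR 4.0.16 (R 4.3.3, TMM, glmQLFit and glmQLFTest), shVCAN over shGFP, with Benjamini-Hochberg adjustment, and the code was tested on simulated data. The standard error is the log2 fold change divided by the root of F. Exonic lengths and coordinates come from GENCODE 29 on GRCh38. An exonic length is that of all annotated exons of a gene merged, not of a single transcript. Floors and intervals cover counting or fitting error only.

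All 31 members are accounted for, called members with each tumour's value. Of each pathway list, up to 5 called genes with the smallest p in each direction are named. The other mediators and MICAL1, the genes between SEMA3F and SEMA3B, and single cell type markers were named after their values were seen. Members and lists were chosen with earlier results of these data known. Alternatives were other normalisations and filters, DESeq2 1.42.0, limma-voom (limma 3.58.1), a replicate block, a length and GC offset, stricter thresholds and leaving out each tumour.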

Additional observations from a re-analysis of the deposited data

How the results depend on the processing

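The 3 members that rose were called higher in all alternatives but the minimum absolute log2 fold change of 1. That minimum left 1 higher and 4 lower members, against 450 higher and 435 lower of all 16254 tested genes. Between 10 (library size alone) and 16 (without shVCAN tumour 2) members fell at the adjusted p of 0.05. Of all tested genes, 1890 of 16254 fell in the first of these fits and 3438 of 16654 in the second. At an adjusted p under 0.01, 13 members fell, against 2567 of all 16254 tested genes lower and 2248 higher. SEMA5A ranged in log2 fold change from 2.12 (without shGFP tumour 3) to 3.06 (without shGFP tumour 1), and VCAN from −1.83 to −1.36 on leaving out 1 tumour.

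With library size alone, 5228 genes were called higher and 1890 lower, against 3120 and 3425 with TMM. The plexin signalling list then had 16 higher and 6 lower, and the co-receptors and the proteases 1 lower each. With the length and GC offset the co-receptors and the proteases also had 1 lower each. At a minimum absolute log2 fold change of 1, 450 genes were higher and 435 lower, with 2 higher and 0 lower co-receptors, 1 higher and 0 lower plexin signalling genes, 0 lower neuropilin ligands, and 0 higher and 0 lower proteases. At an adjusted p under 0.01, 2 co-receptors were higher, beside 2248 genes higher in all. Leaving out 1 tumour gave 2 to 4 higher co-receptors and 2 to 4 lower proteases, and 2596 to 3086 higher and 2938 to 3438 lower genes.

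Directions turned only for members that were not called. With library size alone these were SEMA3A (0.054), SEMA4D (0.023), SEMA4G (0.072), PLXNA3 (0.026) and PLXNB3 (0.10), and with the length and GC offset SEMA4D (0.079), SEMA4G (0.021), PLXNA3 (0.090), PLXNB1 (0.043) and PLXNB3 (0.096). On leaving out 1 tumour, SEMA5B ranged from −0.13 (without shVCAN tumour 1) to 0.34, with values below 0 also without shGFP tumours 1 and 2. SEMA4D ranged from −0.29 to 0.016 and PLXNC1 from −0.010 to 0.15, each turning without shGFP tumour 3. The cause of these shifts was not tested.

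Deviations from the group means had correlations of 0.0176, 0.0157 and −0.0271 for tumours of the same number. For tumours of different numbers they ran from −0.0365 to 0.0208. The labels do not state that the numbers pair tumours, and with 3 tumours per group these correlations cannot settle it. With the replicate number as a block, 15 members were lower, PLXNB1 (−0.18, adjusted p = 0.0499) being added, and 6511 genes were called, 6415 of them shared with the 6545 of the unblocked fit. SEMA3D, SEMA3E, SEMA3G, SEMA4A, SEMA5B, PLXNA4 and, in shGFP tumours, SEMA5A have few counts, and how far depth or the spread between tumours limits their precision was not tested.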
